A study of Homo sapiens with 32 samples.

Results

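The comparison described here sets 1 RNA sequencing library of MM.1S cells, treated with carfilzomib (Cfz) and then all-trans retinoic acid (ATRA), against 3 libraries of the same cells given only the solvent DMSO. MM.1S is an established human multiple myeloma cell line. Cells were pulsed for 1 h with DMSO or Cfz and then kept for 12 h in fresh medium with DMSO or 10 µM ATRA. The DMSO libraries had DMSO in both steps, the 3 ATRA libraries had DMSO and then ATRA, the Cfz library had Cfz and then DMSO, and the combined library had Cfz and then ATRA. Cfz is an inhibitor of the proteasome; its concentration is not stated in the labels. All 15827 genes that passed a minimum level, of 24249 distinct gene IDs, were compared, and values are FPM (fragments scaled so that each lane sums to 1000000) as the authors deposited them, averaged over the 4 sequencing lanes of a library. The combined treatment has 1 library and therefore no replicate check: its lanes are not replicates, and the tests assume that it varies like the DMSO and ATRA libraries. The labels do not say that libraries came from separate cultures, so a p-value here reflects only how far these libraries scatter, and that scatter may be technical.

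ATRA binds retinoic acid receptors, which sit on DNA as dimers with retinoid X receptors and switch from repression to activation when the ligand arrives. The proteasome degrades ubiquitin-tagged proteins, and plasma cells, which make large amounts of secreted antibody, lean on it heavily. When the proteasome is blocked, cells are known to use a small set of transcription factors: NFE2L1 (also called NRF1) for new proteasome subunits, HSF1 for chaperones, NFE2L2 (NRF2) for antioxidant enzymes and ATF4 for amino acid supply, while entry into DNA synthesis is governed by E2F factors and the RB proteins that hold them in check.

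The promoter stretches below are shown because each holds the letters that 1 of these factors is known to read, next to a gene whose level is given here. They come from the RefSeq promoter table on GRCh38.p14 (250 bases before the gene's start to 50 after it), are written 5′ to 3′ along the gene's own strand, and were searched on both strands over the 250 bases before the start. Capitals mark the matching letters, which in HSPA6, GCLM, CHAC1 and CDT1 read on the opposite strand. In MCM6 a forward and a reverse match overlap.

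RARB, retinoid receptor direct repeat (GNTCA, 6 bases of any kind, GNTCA), plus strand, chr3:25428191-25428246: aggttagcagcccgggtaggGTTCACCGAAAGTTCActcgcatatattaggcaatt
HSPA6, heat shock element (GAA, NN, TTC, NN, GAA), plus strand, chr1:161524446-161524498: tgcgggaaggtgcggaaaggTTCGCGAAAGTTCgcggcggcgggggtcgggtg
HSPA8, heat shock element, minus strand, chr11:123062334-123062386: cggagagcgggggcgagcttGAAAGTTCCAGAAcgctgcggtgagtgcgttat
PSMB3, antioxidant response element core TGACNNNGC, plus strand, chr17:38752617-38752665: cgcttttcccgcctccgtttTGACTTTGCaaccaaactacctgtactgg
PSMD12, antioxidant response element core, minus strand, chr17:67366714-67366762: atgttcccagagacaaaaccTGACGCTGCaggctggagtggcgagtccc
TXNRD1, antioxidant response element core, plus strand, chr12:104215660-104215708: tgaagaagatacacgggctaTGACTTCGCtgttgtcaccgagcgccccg
GCLM, antioxidant response element core, minus strand, chr1:93909436-93909484: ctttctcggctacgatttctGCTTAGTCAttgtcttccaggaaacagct
ASNS, ATF4 motif TGATGNAA, minus strand, chr7:97872449-97872496: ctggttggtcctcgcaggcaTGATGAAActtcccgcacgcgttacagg
CHAC1, ATF4 motif, plus strand, chr15:40953242-40953289: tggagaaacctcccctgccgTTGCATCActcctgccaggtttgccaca
E2F1, E2F motif TTTNGCGC, minus strand, chr20:33686386-33686425: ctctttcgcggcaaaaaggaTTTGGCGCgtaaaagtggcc
MCM6, E2F motif, minus strand, chr2:135876568-135876615: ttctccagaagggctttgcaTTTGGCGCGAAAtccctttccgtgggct
CDT1, E2F motif, plus strand, chr16:88803556-88803603: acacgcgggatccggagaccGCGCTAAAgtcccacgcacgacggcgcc

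RARB, HSPA6, HSPA8, PSMB3, PSMD12, TXNRD1 and GCLM were higher in the combined library than in DMSO, as were ASNS and CHAC1, and E2F1, MCM6 and CDT1 were lower. Over the 10938 tested genes with a promoter in the table, the antioxidant core was found in 12.1%, the E2F motif in 2.57%, the ATF4 motif in 1.38%, the retinoid repeat in 0.43% and the heat shock element in 0.302%. The E2F motif was in 8 of the 27 promoters of DNA replication genes (29.6%) and in 4 of 11 for E2F and RB genes (36.4%). It was in 1 of 25 for mitosis (4%), 0 of 17 for homologous recombination and 0 of 8 for deoxynucleotide synthesis. Outside the cell cycle lists it was in 2 of 14 promoters of HSP70 and HSP110 chaperones (14.3%). It was in 2 of 16 for cytosolic aminoacyl-tRNA synthetases (12.5%) and 0 of 20 on the ATF4 list. The heat shock element was in 2 of 14 promoters of HSP70 and HSP110 chaperones (14.3%), and the retinoid repeat in 1 of 10 for retinoid response targets (10%). The antioxidant core was in 4 of 28 proteasome subunit promoters (14.3%), a share near that of all tested genes, and in 5 of 16 promoters of NRF2 and thiol redox genes (31.2%). Other lists had larger shares: 4 of 7 for immunoproteasome and activator genes (57.1%), 9 of 17 for lysosomal genes (52.9%) and 6 of 13 for ubiquitin genes (46.2%). Heme and iron genes had 0 of 11. The ATF4 motif was in 3 of 20 promoters on the ATF4 list (15%). Genes with no match included CYP26A1, HAPLN3, MFGE8 and CD38 for the retinoid repeat, and HSPA1A, HSPA1B and HSP90AA1 for the heat shock element. SQSTM1, SRXN1 and OSGIN1 had none for the antioxidant core. DDIT3 and PPP1R15A had none for the ATF4 motif, and UHRF1, PCNA and TYMS none for the E2F motif. A match says only that the letters are there.

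Depth was 14136937 reads in the combined library and 14945279 to 17155331 reads in the DMSO libraries, and 3 reads correspond to 0.212 FPM in the combined library and to 0.175 to 0.201 FPM in DMSO. DMSO 3 stood apart from the other controls, with read counts whose chi-square over its degrees of freedom was 10.465 against DMSO 1 and 11.034 against DMSO 2, where that pair gave 1.812. On that scale the combined library was 85.158 to 92.071 from the 3 controls. Mitochondrially encoded genes took 5.719% of reads in the combined library (95% Wilson interval 5.707% to 5.731%), 5.854% in DMSO 3, and 4.117% and 4.095% in DMSO 1 and 2. All 7 plasma cell markers on the list were tested, and 5 were higher and 2 lower in the combined library, or 1 lower without DMSO 1, DMSO 2 or any 1 ATRA library. Of 27 markers of T and NK, B, myeloid, stromal and epithelial cells, 6 reached the minimum level, of which 4 were called higher and 1 lower. Over all tested genes, 20% were called higher and 30.5% lower. The calls of CD3E, PDGFRB and EPCAM were lost with DESeq2 on recovered reads. Summed levels were 1.63 to 2.21 FPM in DMSO and 1.7 FPM in the combined library for T and NK cells, 0.302 to 0.468 and 1.27 FPM for myeloid cells, 0.602 to 1.45 and 2.26 FPM for stromal cells, and 0.874 to 1.61 and 2.54 FPM for epithelial cells. No member of these lists was above 3.34 FPM in any library. In bulk RNA, a change in the share of cells in some state and a change in RNA per cell cannot be told apart.

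More genes fell than rose. With limma and Benjamini-Hochberg adjustment over all tested genes, 8002 of 15827 genes (50.6%) were called at an adjusted p under 0.05, of which 3173 were higher in the combined library (20% of genes tested) and 4829 lower (30.5%). At least 2-fold differences were called for 657 genes upward (4.15%) and 1266 downward (8.0%). At least 4-fold differences numbered 114 upward (0.72%) and 112 downward (0.708%). The median log2 difference over all tested genes was -0.05. Leaving out DMSO 3 raised the calls to 3507 higher and 5278 lower. The margin between falls and rises depended on the processing. Of all calls, 39.7% were higher, against 45.2% with median-ratio scaling, 47.5% with TMM scaling and 48.1% with edgeR. Counts below are read against these shares, and log2 differences are on the log2(FPM + 0.5) scale, which understates changes of low genes.

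**Figure D1:**
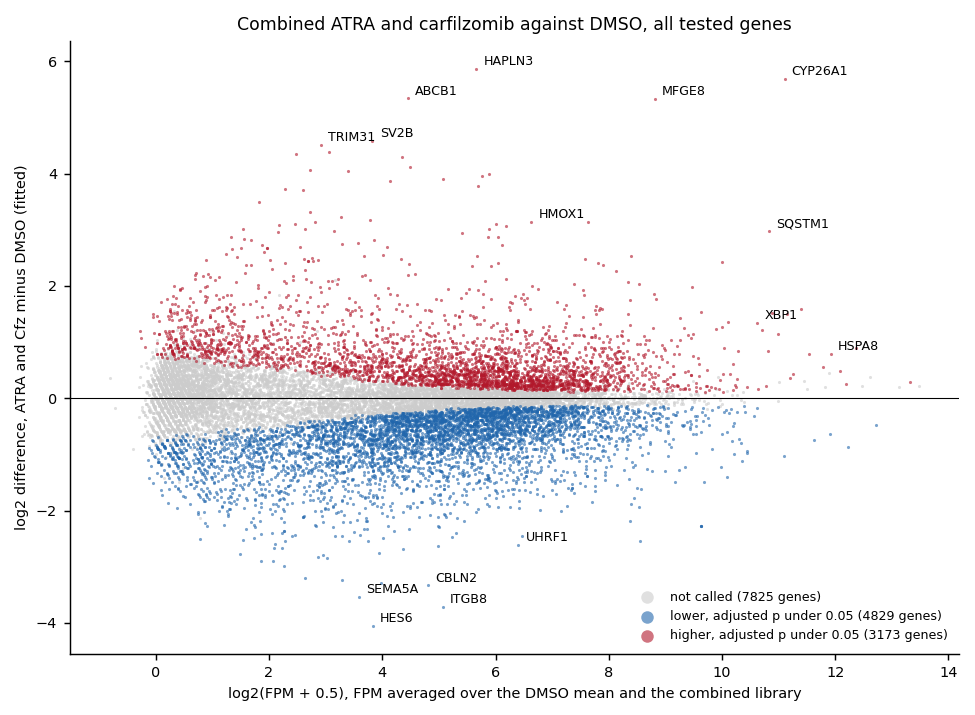
Each point is 1 of the 15827 tested genes, with its average level on the x axis (log2 of FPM + 0.5) and the fitted log2 difference of the combined library from DMSO on the y axis. The 3173 genes called higher (red) reach 5.87 for HAPLN3 and the 4829 called lower (blue) reach -4.05 for HES6.

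The strongest rises were retinoid-linked genes, and in most of them the combined library lay with the ATRA libraries. HAPLN3, a link protein of the extracellular matrix, read 1.16, 1.45 and 1.01 FPM in the DMSO libraries and 98.8 FPM in the combined library. It stood at 92.6 to 101 FPM with ATRA alone and at 0.656 FPM with Cfz alone, so the combined library was inside the ATRA range and far above DMSO. The log2 difference from DMSO was 5.87 ± 0.15 (SE; limma, Benjamini-Hochberg adjusted p = 3.3e-10), an 81.8-fold higher level. CYP26A1, the enzyme that breaks down retinoic acid, went from 79, 77.7 and 92.9 FPM in DMSO to 4316 FPM, a 51.9-fold higher level. It read 3808 to 3822 FPM with ATRA alone and 51.4 FPM with Cfz alone.

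MFGE8, a secreted protein that tags dying cells for uptake, rose from 19.9 to 23.2 FPM in DMSO to 878 FPM. ABCB1, the drug efflux pump also called P-glycoprotein, rose from 0.423 to 0.734 FPM to 42.2 FPM, and IRAK2, a kinase of interleukin-1 receptor signalling, from 1.39 to 2.63 FPM to 41.9 FPM. With ATRA alone MFGE8 was at 1006 to 1019 FPM, ABCB1 at 42.7 to 44 FPM and IRAK2 at 47.4 to 49.7 FPM. The combined library was called below ATRA for MFGE8 and was not called for the other two. The other genes among the 15 largest rises that stayed near DMSO after Cfz alone were SV2B, CALCRL, CPNE5, GBP4, KCNH4 and DDIT4, with log2 differences of 3.78 to 4.58, and TRIM31 and ACSM5. TRIM31 and ACSM5 were at 14 and 10.1 FPM in the combined library and at no more than 0.267 FPM in any DMSO library, near or below the level of 3 reads, so no fold is given.

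HSPA6 differed from those genes in its pattern. HSPA6, a heat-inducible HSP70 chaperone that is nearly silent in unstressed cells, read 0.291, 0.302 and 0.199 FPM in DMSO, 0.633 to 1.45 FPM with ATRA, 4.53 FPM with Cfz and 15.4 FPM in the combined library. The combined library was above every other library, and the Cfz library was above the ATRA and DMSO libraries.

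**Figure D2:**
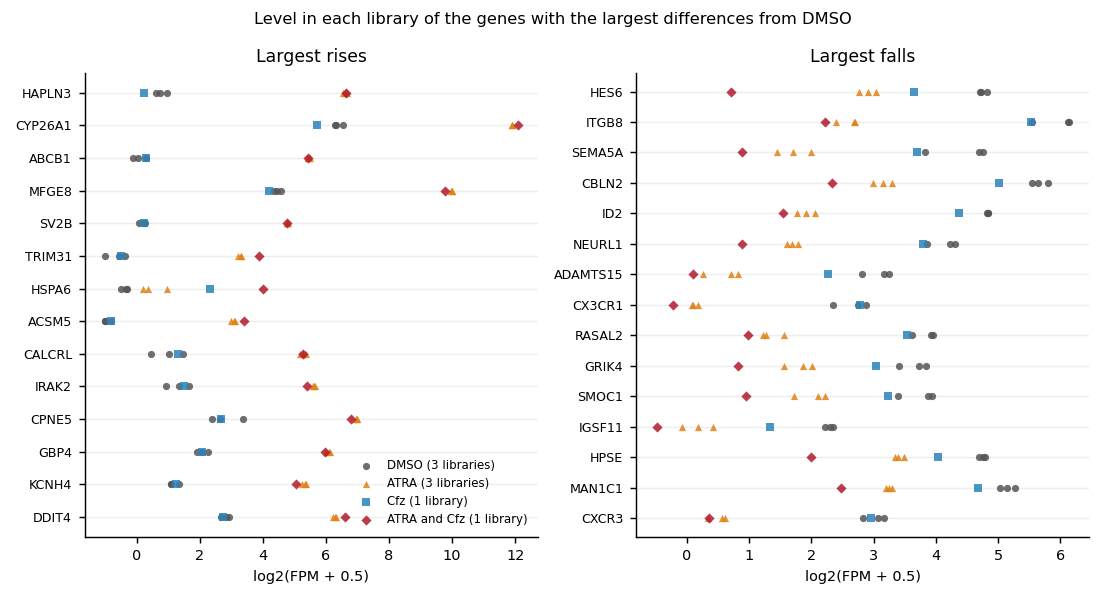
Level in each library, as log2(FPM + 0.5) on the x axis, of 14 of the 15 genes with the largest rises and of the 15 with the largest falls from DMSO (one symbol per library). Combined values lie near the ATRA values for HAPLN3, ABCB1 and CXCR3, and beyond all other libraries for HSPA6, HES6 and HPSE.

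Among retinoid receptors and their corepressors, 3 of 8 tested members rose and 1 fell. RARA, the main retinoic acid receptor of blood cells, read 54.6, 51.5 and 51.7 FPM in DMSO and 88.2 FPM in the combined library, the same level as the ATRA libraries (86.1 to 89.1 FPM). RARB, a receptor gene that is itself a classical retinoic acid target and whose repeat is printed above, went from 0.176 to 0.403 FPM to 1.77 FPM (95% counting interval 1.14 to 2.61 FPM), a log2 difference of 1.49 in limma and 2.58 with DESeq2 on recovered reads. RXRA, the dimer partner, fell from 17.8 to 22.2 FPM to 15.3 FPM, a call that was lost with DESeq2 and when only DMSO and combined libraries were fitted. RARG had 7.75 to 9.24 FPM in DMSO and 8.36 FPM in the combined library and was not called (limma, Benjamini-Hochberg adjusted p = 0.92).

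Of the 13 tested retinoid response targets, 11 rose and 1 fell, with a median log2 difference of 1.97. The list was assembled with results of these libraries known, so its direction is a description. CD38, a surface enzyme of plasma cells and an antibody target in myeloma, rose from 64.7, 67.5 and 79.5 FPM in DMSO to 376 FPM (log2 2.41 ± 0.09). Cfz alone gave 39 FPM and ATRA alone 426 to 434 FPM, so the combined value lay slightly under the ATRA range. PLAAT4, a phospholipid acyltransferase first described as a retinoid-induced gene, rose to 24.7 FPM from 2.81 to 3.56 FPM. ASB2, a ubiquitin ligase component, rose from 4.29 to 6.69 FPM to 33.6 FPM, and ICAM1, an adhesion molecule, from 4.73 to 5.63 FPM to 16.6 FPM. RDH11, a retinal reductase, was at 85.3 FPM against 33.4 to 36.5 FPM in DMSO, and was above both the ATRA libraries (60 to 62.6 FPM) and the Cfz library (60.8 FPM). DHRS3, a further retinal reductase, was listed at 0.283 FPM or less in the DMSO and combined libraries and was not tested.

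The OAS pathway, whose enzymes make a small messenger that activates the antiviral nuclease RNase L, rose in all 6 tested members (median log2 0.99, range 0.22 to 2.87). The list is not limited to these enzymes. It also holds PDE12, which is not one of them, at 122 to 137 FPM over the combined lanes and 85.7 to 97.2 FPM over the DMSO lanes. OAS1 read 13.9, 13.5 and 19.1 FPM in DMSO and 115 FPM in the combined library, OAS3 read 12.9, 12.2 and 15.5 FPM and then 47.1 FPM, and OAS2 read 41.4, 43.4 and 43.4 FPM and then 102 FPM. All 3 were 10.4 to 37.2 FPM after Cfz alone and at or above the combined level after ATRA alone. The wider interferon-stimulated list did not move together: 15 of 42 tested genes rose, 10 fell, and the median was -0.05, the same as over all genes. SAMD9L and PARP14, both induced by interferon, were at 617 and 160 FPM against 245 to 269 and 60.6 to 70 FPM in DMSO. MX1, a classical antiviral GTPase, fell from 17.4 to 19.3 FPM to 12.7 FPM, and USP18, a brake on interferon signalling, from 1.05 to 1.33 FPM to 0.141 FPM, which is 2 reads (95% counting interval 0.0171 to 0.511 FPM).

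IFI44, an interferon-induced gene of unknown enzymatic role, read 2.1, 1.63 and 2.6 FPM in DMSO, 1.39 to 1.83 FPM with ATRA, 15.8 FPM with Cfz and 10.3 FPM in the combined library. Both libraries with Cfz were above all others and did not overlap them. IRF1, the interferon regulatory factor that also answers to retinoids, rose from 82.2 to 83.6 FPM to 229 FPM (log2 1.46 ± 0.05). Of the 15 IRF and STAT genes, 3 rose and 7 fell, beside 20% and 30.5% of all genes. The falls numbered 6 without DMSO 1, DMSO 2 or any 1 ATRA library, and 10 without DMSO 3. The list median was -0.25, with -0.29 for ATRA alone and -0.06 for Cfz alone. IRF7 was at 3.39 FPM against 7.9 to 10 FPM. STAT5A was at 0.354 FPM against 1.67 to 2.12 FPM, near the level of 3 reads (95% counting interval 0.115 to 0.825 FPM). MHC class I genes were divided, 5 of 15 higher and 6 lower, with 3 higher when any 1 ATRA library was left out, and 1 higher and 4 lower when only DMSO and combined libraries were fitted. ERAP2, which trims peptides for loading, rose to 409 FPM from 178 to 195 FPM, and HLA-E, a ligand of natural killer cell receptors, fell to 113 FPM from 208 to 251 FPM.

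All 33 tested subunits of the constitutive proteasome rose: 7 of 7 alpha and 7 of 7 beta subunits of the 20S core, 6 of 6 ATPases and 13 of 13 other subunits of the 19S cap. PSMB5, the chymotrypsin-like subunit that Cfz binds, read 30.5, 30.8 and 27.2 FPM in DMSO and 51.9 FPM in the combined library (log2 0.81 ± 0.09; limma, Benjamini-Hochberg adjusted p = 1.2e-05). PSMB7, the trypsin-like subunit, read 108, 104 and 112 FPM in DMSO and 255 FPM combined. PSMB3, a structural beta subunit, read 91.2, 95.6 and 99.6 FPM in DMSO and 153 FPM combined. PSMC4, an ATPase of the cap's base, had the largest difference of the ATPases, from 104, 97.7 and 98.5 FPM to 274 FPM (log2 1.45). Median log2 differences were 0.52 for the alpha ring, 0.79 for the beta ring, 0.89 for the ATPases and 1 for the other cap subunits. PSMD2, a scaffold of the base, was at 951 FPM against 435 to 462 FPM, and PSMD12, whose promoter stretch is printed above, at 295 FPM against 138 to 141 FPM.

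The smallest rises in the complex were in PSMA2 (log2 0.17), ADRM1, a ubiquitin receptor (0.20), and PSMD7, a partner of the cap's deubiquitinase (0.24). The ADRM1 call was lost without DMSO 2 (limma, Benjamini-Hochberg adjusted p = 0.062), and in all 3 the combined library was below the Cfz library. Set against the single treatments, the subunit levels of the combined library were close to those after Cfz alone and above those after ATRA alone. Against Cfz, 3 of 33 were called higher and 3 lower (12.8% and 17.6% of all genes), with list medians of -0.03, -0.02, 0.04 and 0.05 in the order above. Against the ATRA libraries, 26 of 33 were called higher (10.6% of all genes) and 0 lower (20.2%). Each single treatment also lay above DMSO. In the same order, list medians against DMSO were 0.29, 0.52, 0.35 and 0.34 with ATRA alone (-0.03 over all genes). With Cfz alone they were 0.58, 0.81, 0.89 and 0.91 (-0.08 over all genes).

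Assembly factors did not follow as a group: 2 of 10 rose and 3 fell. POMP, which matures the 20S core, rose from 55.4 to 60.5 FPM to 125 FPM, above both single treatments (91 to 94.8 FPM with ATRA, 97.5 FPM with Cfz). ECPAS, a proteasome adaptor, rose to 655 FPM from 343 to 372 FPM. The core chaperones PSMG1, PSMG2 and PSMG3 fell by 0.42, 0.42 and 0.37 on the log2 scale. Of the immunoproteasome and activator genes, 1 of 7 rose, PSME4, the nuclear activator PA200 (372 FPM against 191 to 203 FPM), and 3 fell. PSMB8 and PSMB9, the inducible catalytic subunits, were at 30 and 19.7 FPM against 41.2 to 47 and 25.4 to 28.7 FPM. The fall of PSME1 (log2 -0.17) was not called under 5 other settings, among them TMM and median-ratio scaling, which call 3 members of this list higher.

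NFE2L1, the factor that drives proteasome genes once it is released from the endoplasmic reticulum, read 206, 206 and 190 FPM in DMSO, 241 to 246 FPM with ATRA, 261 FPM with Cfz and 344 FPM in the combined library. Of 14 genes of its release and of the VCP segregase, 9 rose and 2 fell (median 0.41). UFD1 and NPLOC4, the adaptors with which VCP, a segregase, pulls proteins from membranes, were at 170 and 341 FPM against 71.3 to 76.9 and 151 to 164 FPM. VCP itself was at 991 FPM against 664 to 726 FPM, NGLY1, which removes sugars from NFE2L1, at 188 FPM against 131 to 136 FPM, and DDI2, the protease that cuts it, at 206 FPM against 136 to 159 FPM. For DDI2, the Cfz library (132 FPM) was below the DMSO libraries and the combined library was inside neither the DMSO range nor the ATRA range of 222 to 224 FPM.

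**Figure D3:**
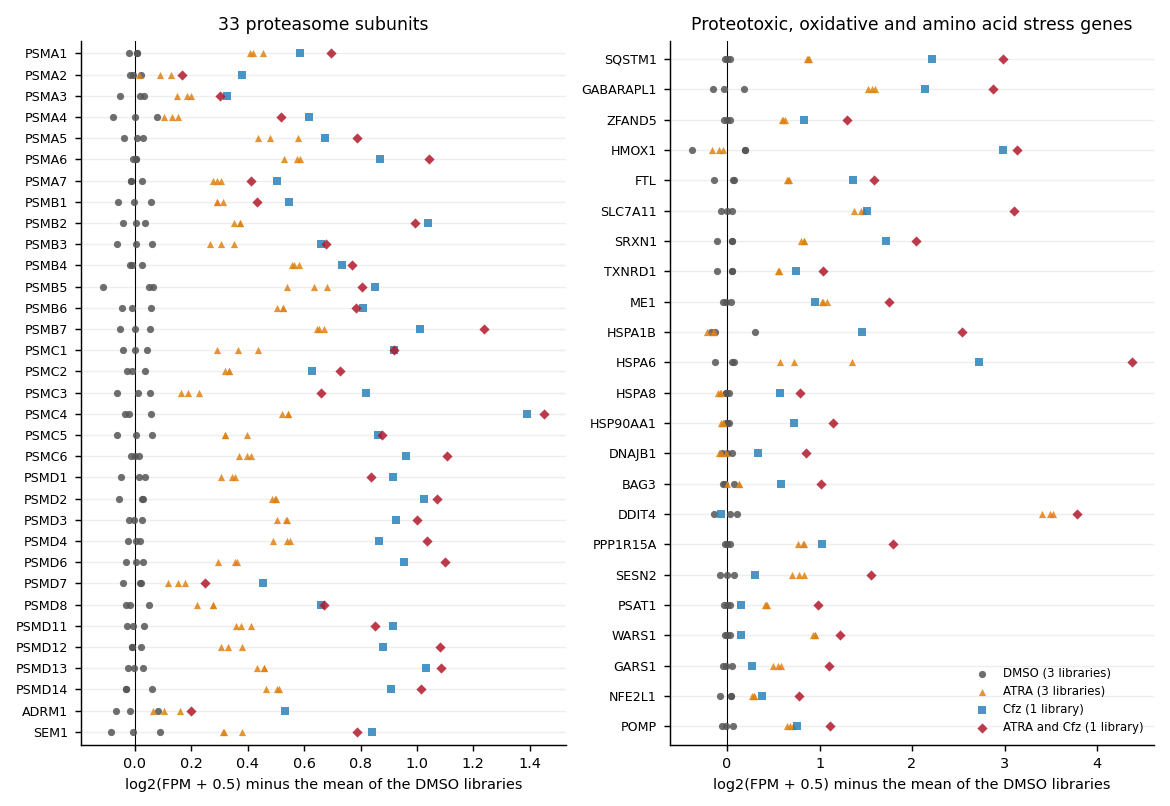
Log2(FPM + 0.5) of each library minus the mean of the DMSO libraries (x axis) for the 33 proteasome subunits (left) and for stress-response genes described in the text (right). Combined values lie near Cfz values for most subunits, such as 51.9 and 53.5 FPM for PSMB5, and beyond both single treatments for SQSTM1, SLC7A11 and HSPA6.

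Ubiquitin genes and their helpers rose in 9 of 17 tested cases and fell in 2. ZFAND5, which helps substrates into the proteasome, was at 470 FPM against 187 to 196 FPM. ZFAND2A, an arsenite- and heat-inducible relative of it, was at 27.9 FPM against 8.03 to 9.97 FPM. USP14, a deubiquitinase bound to the proteasome, was at 388 FPM against 215 to 226 FPM.

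Autophagy genes were led by 2 large rises. SQSTM1, the receptor p62 that carries ubiquitin-tagged aggregates to autophagosomes, read 415, 401 and 406 FPM in DMSO, 741 to 755 FPM with ATRA, 1894 FPM with Cfz and 3214 FPM in the combined library. It was therefore 7.89-fold above the DMSO mean and also above every single-treatment library. GABARAPL1, an ATG8 protein of the autophagosome membrane, read 13.2, 15.4 and 12.1 FPM in DMSO, 39.8 to 41.8 FPM with ATRA, 61 FPM with Cfz and 102 FPM combined. In all, 9 of 15 tested members rose and 1 fell, with a median of 0.31. The count of falls was 0 without DMSO 1, DMSO 2, ATRA 1 or ATRA 3 and 2 without DMSO 3. The receptors TAX1BP1 and CALCOCO2 were at 244 and 138 FPM against 142 to 144 and 73.3 to 79.8 FPM.

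HSF1, the heat shock factor itself, was lower, at 55.1 FPM against 68.8 to 72.2 FPM in DMSO. Chaperones of the HSP70 and HSP110 families rose in 9 of 15 tested members and fell in 1 (median 0.61). The stress-inducible copies HSPA1A and HSPA1B are nearly identical and their reads may be split between them, so their sum is given: 94.8, 92.8 and 127 FPM in DMSO, 89.5 to 92 FPM with ATRA, 332 FPM with Cfz and 674 FPM combined, 6.42-fold the DMSO mean. The division of reads between the copies differed among the lanes of DMSO 1. HSPA8, the constitutive HSP70, read 2831, 2821 and 2892 FPM in DMSO and 4909 FPM combined. HSPH1, a nucleotide exchange factor of HSP70, was at 427 FPM against 260 to 290 FPM, and the ER form HSPA5 at 1413 FPM against 825 to 988 FPM. HSPA14 was the member that fell, from 65.5 to 75.7 FPM to 56.4 FPM.

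HSP90 genes and cochaperones rose in 7 of 13 cases and fell in 1. HSP90AA1, the inducible HSP90, rose from 1256, 1261 and 1280 FPM to 2803 FPM, above the Cfz library at 2087 FPM, while the ATRA libraries (1213 to 1228 FPM) lay just under DMSO. FKBP5, a cochaperone of steroid receptors, was the one that fell, to 59.1 FPM from 128 to 137 FPM. Among J-domain cochaperones, which feed substrates to HSP70, 11 of 20 rose and 1 fell, or 3 without DMSO 3, and DNAJB1 was at 192 FPM against 102 to 110 FPM in DMSO and 134 FPM after Cfz. BAG3, which links HSP70 to autophagy, was at 42.4 FPM against 20 to 21.7 FPM, and HSPD1, the mitochondrial chaperonin, at 2307 FPM against 1279 to 1288 FPM. The list of small heat shock proteins, HSF and BAG factors as a whole went both ways, with 4 of 13 higher and 7 lower.

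The NRF2 and thiol redox list rose in 16 of 22 tested members and fell in 2 (median 0.48). NFE2L2 was at 122 FPM against 75.9 to 78 FPM in DMSO and 108 FPM after Cfz. SLC7A11, the cystine importer that feeds glutathione synthesis, read 12.4, 13 and 13.5 FPM in DMSO, 34.4 to 37 FPM with ATRA, 38 FPM with Cfz and 115 FPM in the combined library (log2 3.10 ± 0.08; limma, Benjamini-Hochberg adjusted p = 5.6e-10). The combined library was above every single-treatment library, with a log2 difference of 1.67 from ATRA and 1.58 from Cfz. SRXN1, sulfiredoxin, was at 269 FPM against 60.5 to 67.7 FPM, and TXNRD1, thioredoxin reductase, at 733 FPM against 333 to 372 FPM. OSGIN1, an oxidative stress-induced gene, read 0.759, 0.362 and 0.336 FPM in DMSO and 5.87 FPM combined. ME1, malic enzyme, which makes NADPH, was at 140 FPM against 40.1 to 42.6 FPM, and GCLM, a subunit of the enzyme that starts glutathione synthesis, at 71.6 FPM against 34.3 to 39.4 FPM.

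HMOX1, heme oxygenase, read 22.6, 22.6 and 15 FPM in DMSO, 17.6 to 19.1 FPM with ATRA, 159 FPM with Cfz and 177 FPM combined. Here the 2 libraries with Cfz stood together and the difference between them was not called (log2 0.16; limma, Benjamini-Hochberg adjusted p = 0.63). FTL, the ferritin light chain that stores iron, rose from 1213 to 1400 FPM to 4015 FPM. BACH1, a repressor of HMOX1, was at 166 FPM against 90.2 to 93.6 FPM. Over the 13 heme and iron genes, 5 rose and 6 fell, and FLVCR1, a heme exporter, fell to 17.5 FPM from 35.1 to 37.3 FPM.

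The ATF4 list rose in 20 of 24 tested members, with 1 fall and a median of 0.73. The list median was 0.41 with ATRA alone and 0.21 with Cfz alone, against -0.03 and -0.08 over all genes. ATF4, the translation-controlled factor at the centre of the integrated stress response, was itself at 372 FPM against 214 to 237 FPM in DMSO. DDIT3, which encodes CHOP, read 5.71, 5.62 and 6.29 FPM in DMSO, 8.55 to 9.76 FPM with ATRA, 8.06 FPM with Cfz and 22.2 FPM combined. PPP1R15A, the phosphatase subunit that ends the response, was at 145 FPM against 40.8 to 42.4 FPM, and SESN2, which senses leucine, at 29.8 FPM against 9.31 to 10.4 FPM. For these 3 genes the combined library was called above DMSO, ATRA and Cfz alike. DDIT4, an inhibitor of mTORC1, was different, at 95.6 FPM against 5.82 to 7 FPM in DMSO, with 73.4 to 79.6 FPM after ATRA and 6.17 FPM after Cfz.

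Several enzymes on the list act in amino acid supply. ASNS, asparagine synthetase, was at 117 FPM against 58.2 to 69 FPM, PSAT1, of serine synthesis, at 140 FPM against 69.1 to 72.1 FPM, and CTH, which makes cysteine, at 10.5 FPM against 2.89 to 3.14 FPM. CHAC1, which degrades glutathione, was at 7.42 FPM against 0.968 to 1.81 FPM. VLDLR was the member that fell. Of 20 cytosolic aminoacyl-tRNA synthetases, which load amino acids onto tRNA, 15 rose and 2 fell (median 0.46). The median of these synthetases was 0.3 with ATRA alone and 0.04 with Cfz alone. GARS1 was at 387 FPM against 175 to 188 FPM and WARS1 at 126 FPM against 52.9 to 55 FPM.

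The list of the endoplasmic reticulum unfolded protein response did not rise as a whole, with 6 of 25 genes higher, 8 lower and a median of -0.02. XBP1, the splicing-controlled factor of this response that also drives plasma cell differentiation, rose from 888 to 906 FPM to 2260 FPM. Its level was 2635 to 2656 FPM with ATRA and 800 FPM with Cfz. PDIA4, a disulfide isomerase, fell to 290 FPM from 414 to 490 FPM, and SDF2L1, an ER chaperone partner, to 9.34 FPM from 13.4 to 20.9 FPM. For SDF2L1 and PDIA4, DMSO 3 had the lowest control value.

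**Figure D4:**
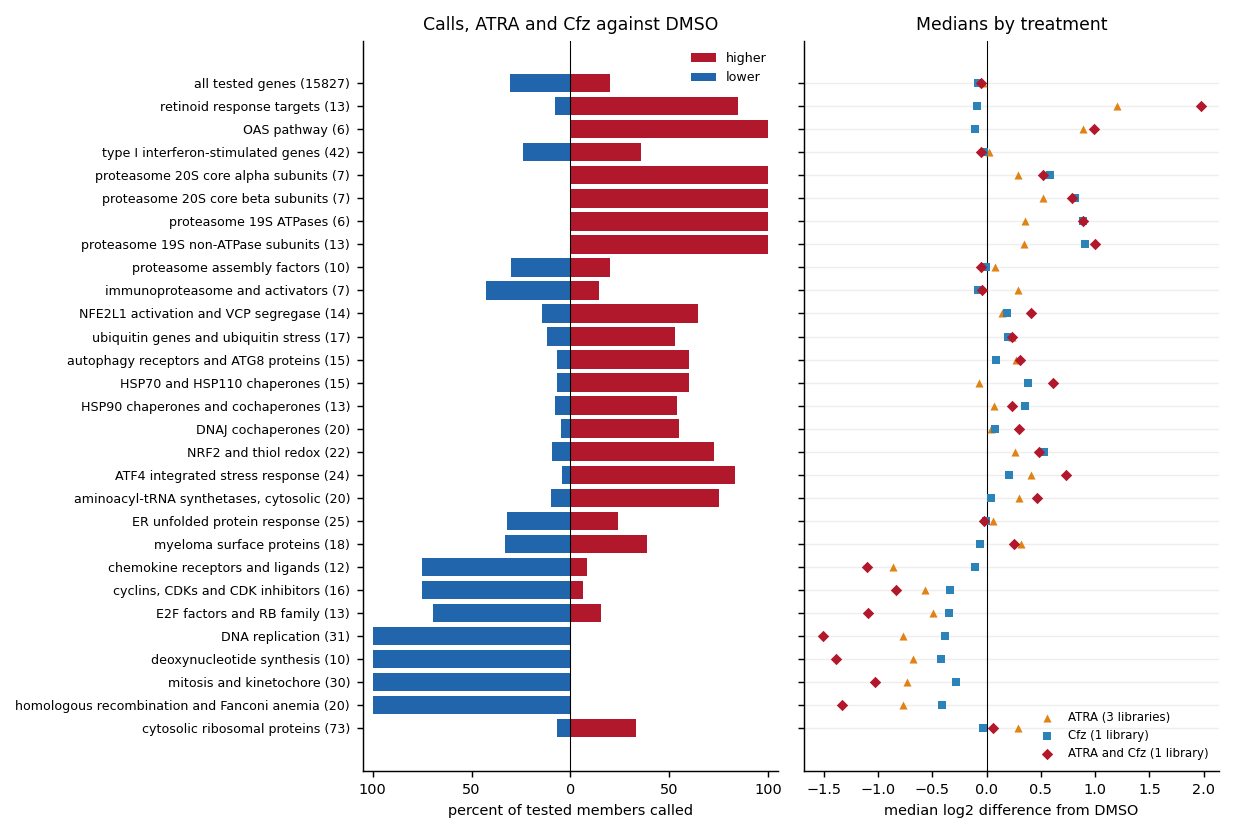
Left, percent of tested members of each list called higher (red) or lower (blue) in the combined library against DMSO, with the number tested in brackets and all 15827 genes at the top (20% higher, 30.5% lower). Right, median log2 difference from DMSO of ATRA, Cfz and the combined library. The 4 proteasome lists lie wholly to the right and the replication, deoxynucleotide, mitosis and recombination lists wholly to the left.

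Plasma cell genes and surface proteins were altered in both directions. SDC1, the plasma cell surface marker CD138, read 444, 433 and 393 FPM in DMSO, 1204 to 1270 FPM with ATRA, 330 FPM with Cfz and 924 FPM combined, so the combined library was above DMSO and below ATRA. TNFRSF17, the therapeutic antigen BCMA, read 240, 241 and 194 FPM in DMSO and 275 FPM combined, a difference of log2 0.29 ± 0.10 that was 0.19 without DMSO 3 and was not called in 2 of the other settings. GPRC5D, an antigen used for bispecific antibodies, fell from 98.7, 101 and 70.6 FPM to 26.7 FPM, and SLAMF7, the target of elotuzumab, from 593 to 734 FPM to 388 FPM. Over the surface list, 7 of 18 rose and 6 fell. CD44 and ITGA4, both adhesion receptors, fell to 582 and 244 FPM from 811 to 947 and 372 to 419 FPM.

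Of 14 plasma cell transcription factors tested, 4 rose and 4 fell, beside 20% and 30.5% of all genes. MAF, which a translocation in this line places under an immunoglobulin enhancer, rose from 887 to 899 FPM to 1596 FPM. PRDM1, the master factor BLIMP1, rose from 423 to 464 FPM to 669 FPM. IRF4, on which myeloma cells depend, had 1217, 1209 and 995 FPM in DMSO and 958 FPM combined, and the call (log2 -0.25; limma, Benjamini-Hochberg adjusted p = 0.043) was lost in 11 of 16 other settings. MEF2C, a B-lineage factor, fell from 788 to 833 FPM to 562 FPM.

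Chemokine receptors and ligands were mostly lower: 9 of 12 tested members fell and 1 rose, or 2 without DMSO 1 (median -1.10). CXCR3 fell from 7.93, 8.45 and 6.56 FPM to 0.773 FPM and CX3CR1 from 6.18, 6.88 and 4.61 FPM to 0.352 FPM, where the ATRA libraries held 0.758 to 1.02 FPM and 0.56 to 0.63 FPM. For both receptors the Cfz library was inside the DMSO range. CCR1, a receptor of inflammatory chemokines, was at 187 FPM against 288 to 345 FPM. CXCR4, the receptor that homes plasma cells to marrow, was the one that rose. It read 50.6, 48.7 and 61.6 FPM in DMSO, 137 to 139 FPM with ATRA, 27 FPM with Cfz and 88.4 FPM combined, between its 2 single treatments.

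The largest fall of all was that of HES6, a helix-loop-helix cofactor of the HES family. It read 27.7, 25.6 and 26 FPM in DMSO, 6.3 to 7.75 FPM with ATRA, 12 FPM with Cfz and 1.13 FPM combined (95% counting interval 0.647 to 1.84 FPM), 23.4-fold below the DMSO mean. Both single treatments were lower than DMSO and the combined library was lower than either. ID2 and ID3, inhibitors that bind E proteins, fell by 3.29 and 2.29 on the log2 scale, and ID1, of the same family, rose from 2.07 to 2.97 FPM to 7.85 FPM. The E proteins TCF3 and TCF4 were at 162 and 180 FPM against 277 to 298 and 271 to 306 FPM. Over this list 7 of 9 tested members fell and 1 rose.

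The other large falls included ITGB8, an integrin that activates TGF-beta, from 69.7, 69.3 and 46.2 FPM to 4.17 FPM, and SEMA5A, a guidance protein, from 26.4, 25.4 and 13.7 FPM to 1.34 FPM. In both, DMSO 3 was the lowest control and still several times above the combined library. CBLN2, a synaptic organiser, fell from 46 to 55.4 FPM to 4.52 FPM. HPSE, the heparanase that trims the sugar chains of SDC1, fell from 25.3, 27 and 26.4 FPM to 3.47 FPM, below the ATRA libraries (9.59 to 10.7 FPM) and the Cfz library (15.8 FPM). NEURL1, ADAMTS15, RASAL2, GRIK4, SMOC1, IGSF11 and MAN1C1 made up the 15 with CXCR3, CX3CR1 and ID2, and had log2 differences of -2.69 to -3.24.

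Every tested member of 4 cell cycle lists fell: 31 of 31 DNA replication genes (median log2 -1.51), 10 of 10 genes of deoxynucleotide synthesis (-1.39), 20 of 20 of homologous recombination and Fanconi anemia (-1.33) and 30 of 30 of mitosis and the kinetochore (-1.03). The summed level of the 31 replication genes was 1291 FPM in the combined library against 3693 to 3850 FPM in DMSO. Median differences of the same lists for ATRA alone were -0.77, -0.68, -0.77 and -0.73, and for Cfz alone -0.38, -0.42, -0.41 and -0.28.

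E2F1, the activator that switches on S-phase genes, fell from 73, 70.1 and 69.4 FPM to 15.3 FPM (log2 -2.18 ± 0.07; limma, Benjamini-Hochberg adjusted p = 1.9e-09). ATRA alone gave 38.3 to 41.9 FPM and Cfz alone 46.4 FPM, so the combined library was below both. E2F7 and E2F8, repressors in the same cycle, fell to 27 and 16.6 FPM from 100 to 110 and 54.6 to 70.5 FPM. E2F6, a repressor that does not bind RB, rose from 24.9 to 27.5 FPM to 49.7 FPM. RB1 and RBL1, of the RB family, fell to 36.4 and 41.4 FPM from 71.1 to 83 and 88.2 to 94.2 FPM, and over the list 9 of 13 fell and 2 rose.

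UHRF1, which carries DNA methylation through replication, had the largest fall of the replication list: 137, 142 and 155 FPM in DMSO, 53.3 to 56.1 FPM with ATRA, 92.3 FPM with Cfz and 23.3 FPM combined (log2 -2.61). MCM5, of the replicative helicase, read 178, 176 and 175 FPM in DMSO and 44.2 FPM combined, with 94.4 to 95.7 FPM after ATRA and 138 FPM after Cfz. MCM6, of the same helicase, was at 117 FPM against 307 to 322 FPM. CDT1, which loads the helicase, was at 7.28 FPM against 25.2 to 30.2 FPM, and PCNA, the sliding clamp, at 104 FPM against 318 to 350 FPM. TYMS, thymidylate synthase, fell from 310 to 351 FPM to 90 FPM, and RRM2, of ribonucleotide reductase, from 1169 to 1300 FPM to 427 FPM. For RRM2, the Cfz library (1171 FPM) was inside the DMSO range.

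**Figure D5:**
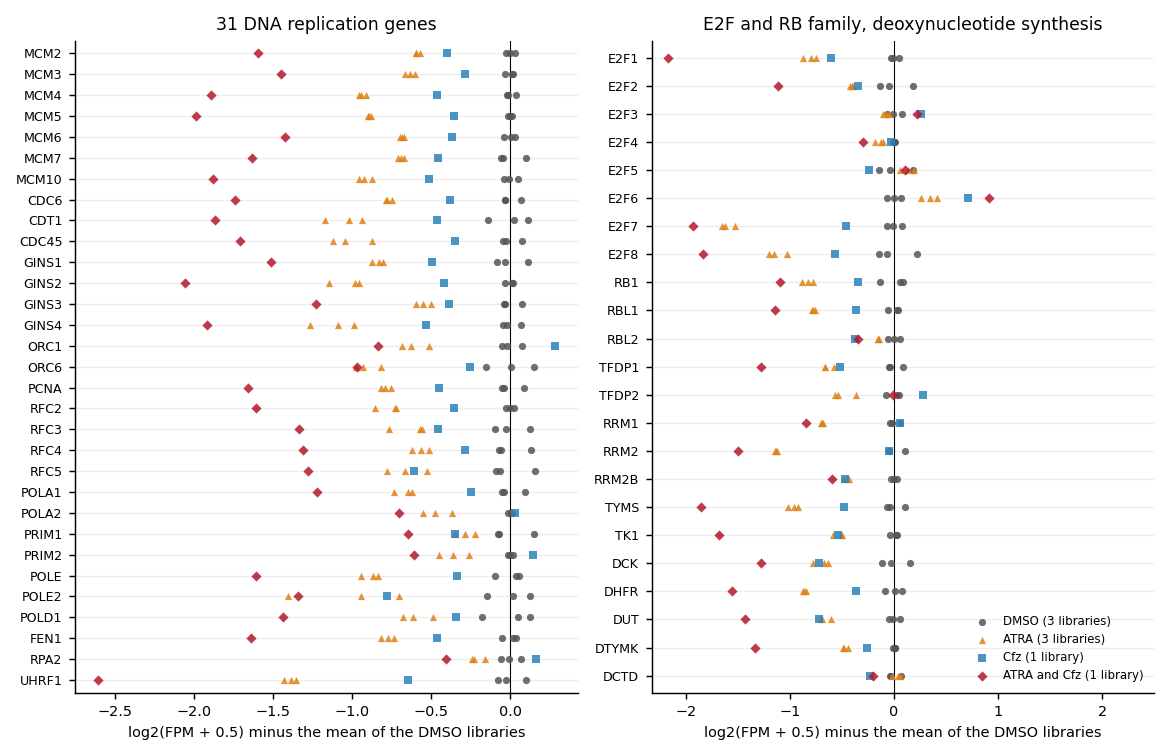
Log2(FPM + 0.5) of each library minus the mean of the DMSO libraries (x axis) for the 31 DNA replication genes (left) and for the E2F and RB family and deoxynucleotide synthesis genes (right). The combined library is the lowest of all libraries for 29 of the 31 replication genes, such as UHRF1 at 23.3 FPM, and for E2F1 at 15.3 FPM on the right, and E2F6 is higher than in DMSO.

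The mitotic list had the smallest median difference of these 4. MKI67, the proliferation marker Ki-67, read 899, 887 and 961 FPM in DMSO, 413 to 428 FPM with ATRA, 776 FPM with Cfz and 392 FPM combined, and was not called between the combined and ATRA libraries (limma, Benjamini-Hochberg adjusted p = 0.18). TOP2A, which untangles chromosomes, was at 251 FPM against 584 to 668 FPM. BRCA1 and FANCI, of DNA repair, were at 58.2 and 108 FPM against 141 to 151 and 266 to 281 FPM. Of 16 cyclins, CDKs and CDK inhibitors tested, 12 fell and 1 rose, or 2 without DMSO 3. Of 7 tested replication-dependent histone genes 1 fell and 0 rose (1 without ATRA 2), with a median of 0.30. Levels were low: the 14 listed histone genes summed to 19.1 to 21.9 FPM in DMSO and 22.1 FPM in the combined library. The gene that fell, H1-4, lost its call with DESeq2. CDK2, the S-phase kinase, fell from 75.6, 78.6 and 87 FPM to 19.4 FPM, and CDKN1A, the inhibitor p21, rose from 20.8, 21.1 and 21.3 FPM to 62.6 FPM.

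Survival genes were split. MCL1, the BCL2 relative on which many myeloma cells rely, rose from 613, 617 and 622 FPM to 1577 FPM, above the ATRA libraries (1374 to 1404 FPM) and the Cfz library (574 FPM). BCL2L1, which encodes BCL-XL, fell from 272, 259 and 259 FPM to 122 FPM. BCL2 had 160 to 184 FPM in DMSO and 203 FPM combined, and its call was lost when only the DMSO and combined libraries were fitted (limma, Benjamini-Hochberg adjusted p = 0.076). BIRC5, survivin, a mitosis-linked inhibitor of apoptosis, fell to 49.1 FPM from 102 to 123 FPM, while CASP8, the caspase of death receptors, was at 286 FPM against 163 to 174 FPM and FAS at 42.8 FPM against 24.6 to 26.2 FPM.

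MYC, the growth-promoting factor, read 338, 339 and 340 FPM in DMSO, 667 to 674 FPM with ATRA, 339 FPM with Cfz and 569 FPM combined. The combined library was thus above DMSO and below ATRA. MXD1, a MYC antagonist, rose from 22.3 to 23.7 FPM to 42.6 FPM, above both single treatments, and MYCL fell from 4.13 to 4.68 FPM to 0.352 FPM. NF-kB genes had no common direction, 6 of 17 higher and 5 lower, with NFKBIZ at 37.1 FPM against 15.2 to 17.7 FPM and TNFAIP3, a feedback inhibitor, at 179 FPM against 275 to 292 FPM.

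To ask what the second agent added, the combined library was also fitted against each single treatment. Against the 3 ATRA libraries, 4884 genes (30.9%) were called, 1681 higher (10.6%) and 3203 lower (20.2%). Against the 1 Cfz library, 4818 genes (30.4%) were called, 2028 higher (12.8%) and 2790 lower (17.6%), with 1 library on each side. Median differences over all genes were -0.04 and 0. These comparisons share the combined library with the one against DMSO.

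Among the 6 genes called above DMSO, ATRA and Cfz with the largest smallest difference were UBD, HSPA6, SLC7A11, MUC16 and ANXA1. UBD, the ubiquitin-like modifier FAT10, read 0.351, 0.182 and 0.0664 FPM in DMSO, 1.65 to 1.89 FPM with ATRA, 0.131 FPM with Cfz and 8.56 FPM combined. It was at the level of a few reads in DMSO and Cfz alike, and the combined value had a 95% counting interval of 7.1 to 10.2 FPM. MUC16, the mucin CA125, read 0.133 to 0.424 FPM in DMSO, 1.2 to 1.81 FPM with ATRA, 1.18 FPM with Cfz and 5.09 FPM combined. ANXA1, a phospholipid-binding protein, read 0.471 to 1.05, 1.39 to 2.04, 2.23 and 6.3 FPM in the same order. This set was chosen for lying above DMSO, ATRA and Cfz, so its position above them is a description and not a check.

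The genes below all 3 were HES6, FANCE, HPSE, EFNB1, E2F1 and TNFRSF21. FANCE, of the Fanconi anemia core complex, read 13.9, 16.6 and 14.1 FPM in DMSO, 8.41 to 11.5 FPM with ATRA, 11.1 FPM with Cfz and 3.32 FPM combined. EFNB1, an ephrin, read 3.26 to 4.04, 2.49 to 3.14, 2.83 and 0.775 FPM in that order. TNFRSF21, a death receptor, read 3.44 to 4.04, 2.37 to 2.84, 2.43 and 0.637 FPM. None of the 3 combined values overlapped any other library. These genes were chosen for lying below all 3 other groups, so the lack of overlap is a description and not a check.

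By list, the replication genes fell against both single treatments, 28 of 31 against ATRA (median -0.74) and 29 of 31 against Cfz (median -1.16). Mitotic genes fell in 14 of 30 against ATRA, with 1 higher, and in 29 of 30 against Cfz. The HSP70 and HSP110 list was higher in 11 of 15 against ATRA (median 0.33) and in 7 of 15, with 1 lower, against Cfz (median 0.22). ATF4 genes were higher in 13 of 24 against ATRA and in 18 of 24, with 1 lower, against Cfz, with medians of 0.32 and 0.54. Retinoid response targets showed 0 higher and 2 lower of 13 against ATRA, and 11 higher and 1 lower against Cfz.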

How the data were processed

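Total RNA of MM.1S cells was sequenced as 8 libraries on 4 lanes each. Per the submitters' processing notes, reads went through fastp 0.20.0 and kallisto 0.46.2, and DESeq2 is also named there without a version. Build, annotation and strand setting are not given in those notes, so overlapping and antisense genes may share reads. The table that the authors deposited holds FPM, in effect CPM, for each lane, summing to 1000000. Each of 24249 gene IDs was used once (143 stood on several lines with the same values). Whole reads could be recovered for 100% of values within 0.01 read, and the values deposited include no gene with fewer than 10 reads in total. Symbols came from a gene name table for 24136 IDs, GENCODE 29 for 73 and the deposited table for 33, and 7 had none.

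Lanes were averaged: between lanes of 1 library, chi-square over its degrees of freedom was 1.211 to 1.261. Genes with a mean of the 4 group means of at least 0.5 FPM were tested with limma 3.58.1 (R 4.3.3; two-sided, intensity trend) on log2(FPM + 0.5), fitting all 8 libraries together (residual degrees of freedom 4, prior 7.21). A gene was called where its Benjamini-Hochberg adjusted p was under 0.05. Intervals of single values are exact Poisson at 95% and cover counting error only. The script was tested on simulated data. Alternatives were other pseudocounts, filters, scalings and library subsets, and edgeR 4.0.16 and DESeq2 1.42.0 on recovered reads, which called 3782 and 2708 genes higher and 4085 and 3277 lower against DMSO.

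Named genes are the 15 largest rises and falls among called protein-coding genes with at least 2 FPM in the higher group, outside the DMSO range and with agreeing lanes (6841 passed, 76 were left out for lanes alone), the 6 furthest above and below all 3 other groups, a fixed set tied to the treatments, and for each of 58 gene lists up to 4 called members with the smallest p plus those whose role is described. Some genes that this rule names are not reported here. The comparison, lists and rules were chosen with earlier results of these data known.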

Additional observations from a re-analysis of the deposited data

How the results depend on the processing

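No paired analysis was possible because the combined treatment has 1 library without a partner number. Limits are the single combined library, a spread borrowed from other groups and, for genes near 0.212 FPM, depth. Under all 16 alternatives the calls against DMSO stayed within 1.5 times the counts reported (2671 to 3817 higher, 3277 to 5278 lower). Leaving out single DMSO or ATRA libraries gave 2942 to 3507 higher and 4500 to 5278 lower against DMSO, 1308 to 2300 and 2596 to 4092 against ATRA, and 1774 to 2821 and 2526 to 3463 against Cfz, the highest each time without DMSO 3. DESeq2 called 1735 genes lower against ATRA, and 1292 higher and 1816 lower against Cfz; the cause was not tested. The comparisons with ATRA and Cfz have no value when only DMSO and combined libraries are fitted. The share of calls that were higher, 39.7%, reached 48.1% with edgeR. RARG, not called, had a log2 difference of -0.02, which was 0.04 with DESeq2, 0.05 with TMM scaling and edgeR, 0.03 with median-ratio scaling, and -0.08 to 0.04 when single libraries were left out. Of 280 called genes chosen by the rule or described, 18 lost their call under at least 1 alternative, among them IRF4, PSME1, RXRA, TNFRSF17, BCL2, ADRM1, PSMA2, PSMG3 and HSPA14. Mitochondrially encoded genes called higher were 5 of 13, and 13 without DMSO 3; ribosomal protein genes called lower were 5 of 73, and 11 without DMSO 3.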

Other observations

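Lysosomal genes rose in 12 of 29 tested members and fell in 3, or 5 without DMSO 3 (median log2 0.05, against -0.05 over all genes). CTSD, the acid protease cathepsin D, read 115, 117 and 108 FPM in DMSO, 211 to 218 FPM with ATRA, 284 FPM with Cfz and 338 FPM in the combined library. ATP6V0A1, of the proton pump, was at 220 FPM against 64.6 to 79.5 FPM, and PSAP, which helps degrade sphingolipids, at 1331 FPM against 521 to 590 FPM. CTSZ, a further cathepsin, was at 79.3 FPM against 14.4 to 16.3 FPM, near the ATRA libraries (92 to 93.8 FPM). Of 19 ABC transporters, 10 rose and 2 fell, or 4 without DMSO 3, and next to ABCB1 these included the cholesterol exporters ABCA1 (15.1 FPM against 1.07 to 1.87 FPM) and ABCG1 (9.27 FPM against 0.4 to 0.783 FPM).

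Cholesterol synthesis genes fell in 11 of 27 tested members and rose in 4, beside 30.5% and 20% of all genes. Their median log2 difference was -0.09, against -0.05 over all genes. SREBF1, a lipid-gene factor, was at 80.9 FPM against 17.5 to 23.2 FPM. Glycolysis genes fell in 11 of 21 and rose in 6, with LDHA at 625 FPM against 1153 to 1223 FPM. Integrin subunits fell in 10 of 15 and rose in 1, or 2 without DMSO 3. DUSP5, a phosphatase of ERK, rose from 293 to 333 FPM to 1717 FPM, while DUSP7 fell from 22.6 to 25.7 FPM to 7.78 FPM. Ribosomal protein genes had a median of 0.06, with 24 of 73 higher and 5 lower in the combined library (3 lower without DMSO 1 or any 1 ATRA library, and 11 without DMSO 3), and 37 and 38 higher with edgeR and with TMM scaling.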
